A study of Mus musculus with 12 samples.

Results

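Genes that answer to low oxygen and genes of glycolysis were followed in endothelial cells (ECs) of mouse lungs as metastases grew. The 10 genes, Slc2a1, Hk2, Pfkfb3, Pgk1, Ldha, Pdk1, Bnip3, Ankrd37, Ndrg1 and Adm, were named by symbol and are 10 of the 18193 genes that could be read on the arrays, each from its probe set of highest mean signal across the 12 arrays. Affymetrix mouse genome arrays were run on ECs of 4 groups, 3 arrays each: lungs of healthy mice, and lungs at weeks 1, 2 and 3 after MDA231-LM2 cells had been put into the tail vein. MDA231-LM2 is a derivative of the human breast cancer line MDA-MB-231 with high metastatic activity in the lung. All mice were NSG, an immunodeficient strain, 6 to 8 weeks old when the experiments began, and the healthy controls were age-matched and carried no cancer cells. The labels call the arrays biological replicates. Whether an array holds 1 mouse or several is not given in the sources used here, so the p-values measure the spread between these arrays. The lungs were digested and sorted for CD31, and cells carrying CD140a, CD140b, CD45, CD11b, EpCAM or GFP (the cancer cells) were discarded, so that ECs from inside and outside metastatic nodules were measured together.

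The cell senses oxygen through prolyl hydroxylases, which use it to mark the α subunits of hypoxia-inducible factors (HIF) for destruction. When oxygen is short, or when growth signals raise their synthesis, the α subunits build up, pair with ARNT and bind a short element near their target genes. Many targets move glucose into the cell, break it down to lactate and hold pyruvate back from mitochondria, and ECs, which make much of their ATP by glycolysis, use the same enzymes when they migrate and divide. In lung ECs, adrenomedullin is also a local peptide signal that widens vessels and tightens their barrier.

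The core of the HIF element can be read as ACGTG on either strand (CACGT when it lies on the other strand), and the 250 bases before the RefSeq start sites of the genes (GRCm38.p6) were searched for it. RefSeq promoters were at hand for 9 of the 10 genes, with none for Ndrg1. The motif in this form occurred in a window of 7 of these 9 genes (77.8%), against 4998 of 27025 mouse genes (18.5%), and Pdk1 and Adm had none. Other forms of the element were not counted. Some genes have more than 1 start, and of their 12 windows 8 held the motif (66.7%), against 16.6% of 32851 windows of all genes. Because the genes include well-known HIF targets, this share is a description of the list. The promoters of 5 genes are shown, 4 with the motif and that of Adm without it. By the test described below, Ankrd37 rose at week 3 and Adm fell at week 1, each against healthy. Both rose in week 3 against week 1. The other 3 had higher signals at week 3 against healthy without passing the test. The promoters are written 5′ to 3′ in the direction of the gene, ending at the base before the start, with ACGTG or CACGT in capitals. For Ldha, the window with sites is shown, and its second window, chr7:46846832-46847081, held none. The Ankrd37 window and both Ldha windows lie inside the annotated spans of these genes, and the bases before the outer ends of these spans were not searched. In CACGTG the motifs of both strands overlap, and its 6 bases are counted as 1 site.

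Ankrd37, chr8:45999851-46000100, minus strand, with sites 241 and 6 bases before the start: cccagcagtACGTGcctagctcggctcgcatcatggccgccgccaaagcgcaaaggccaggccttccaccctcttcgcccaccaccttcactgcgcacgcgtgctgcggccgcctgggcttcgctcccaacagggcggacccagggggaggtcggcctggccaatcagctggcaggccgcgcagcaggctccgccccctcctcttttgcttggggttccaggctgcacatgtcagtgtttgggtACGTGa
Ldha, chr7:46845554-46845803, plus strand, with sites 145, 48 and 34 bases before the start: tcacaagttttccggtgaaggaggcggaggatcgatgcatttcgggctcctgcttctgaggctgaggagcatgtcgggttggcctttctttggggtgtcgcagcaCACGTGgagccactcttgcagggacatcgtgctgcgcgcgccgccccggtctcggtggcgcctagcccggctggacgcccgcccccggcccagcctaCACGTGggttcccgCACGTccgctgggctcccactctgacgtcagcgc
Pgk1, chrX:106186850-106187099, plus strand, with sites 150 and 131 bases before the start: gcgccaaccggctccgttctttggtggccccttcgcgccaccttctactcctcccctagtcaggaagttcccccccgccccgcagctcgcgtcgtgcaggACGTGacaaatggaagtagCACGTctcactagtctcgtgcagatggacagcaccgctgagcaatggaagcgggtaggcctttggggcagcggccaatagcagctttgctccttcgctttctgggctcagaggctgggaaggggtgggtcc
Bnip3, chr7:138909507-138909756, minus strand, with a site 108 bases before the start: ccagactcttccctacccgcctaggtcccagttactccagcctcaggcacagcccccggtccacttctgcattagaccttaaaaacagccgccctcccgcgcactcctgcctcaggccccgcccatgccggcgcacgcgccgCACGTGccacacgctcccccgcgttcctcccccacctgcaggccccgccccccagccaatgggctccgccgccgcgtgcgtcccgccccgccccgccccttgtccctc
Adm, chr7:110627407-110627656, plus strand, with no site in this window: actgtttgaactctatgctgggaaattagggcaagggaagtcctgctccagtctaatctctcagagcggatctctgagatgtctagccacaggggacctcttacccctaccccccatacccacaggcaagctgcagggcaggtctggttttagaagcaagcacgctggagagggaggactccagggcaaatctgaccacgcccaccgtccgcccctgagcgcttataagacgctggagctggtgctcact

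A match to these 5 letters is not a shown binding site, and their absence from a window leaves the rest of the gene unread. The same letters with G in place of A are given only for the windows of Pdk1 and Adm, which lacked the motif. Read on both strands, they occur in a window of Pdk1 and in that of Adm. Their share among the other genes and among all genes was not counted, so this is a description only. HIF binding was not measured on these arrays.

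The sort can be checked on the arrays. Averaged over 10 endothelial markers, the log2 signal was 12.93 to 13.06 in healthy ECs, 13.07 to 13.10 at week 1, 13.05 to 13.08 at week 2 and 13.00 to 13.09 at week 3, and none of the 10 passed the test in week 3 against healthy. Markers of other cells were measurable, some at high signals, and moved between groups. In healthy ECs the highest fibroblast marker averaged 13.05 and the highest epithelial marker 13.53. The 10 endothelial markers had averages between 11.61 and 13.48 there. Fibroblast markers (8 genes) averaged 11.37 to 11.50 in healthy ECs, 10.60 to 10.81 at week 1, 10.15 to 10.49 at week 2 and 10.57 to 10.72 at week 3. Dividing-cell markers (7 genes) averaged 8.75 to 9.48 in healthy ECs, 8.89 to 9.58 at week 1, 8.88 to 9.06 at week 2 and 10.52 to 11.28 at week 3. Here fewer cells of a type and less RNA per cell cannot be told apart, and the part of other cells in the results below was not tested except where a value is given. The 3′ over 5′ difference of the Gapdh control probe sets, a sign of RNA integrity, was 0.52 ± 0.16 in healthy ECs, 0.47 ± 0.06 at week 1, 0.35 ± 0.05 at week 2 and 0.31 ± 0.08 at week 3 (log2, SD, n = 3 each). Gapdh is also a gene of glycolysis, and both signals were higher at week 3. The 5′ signals were 12.17 to 12.48 in healthy ECs and 12.67 to 12.84 at week 3. The 3′ signals were 12.81 to 12.86 in healthy ECs and 12.985 to 13.08 at week 3.

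Week 3 against healthy asks how ECs of lungs with late metastases differed from those of lungs without. Of the 10 genes, Ankrd37 and Ndrg1 rose, 0 fell and 8 stayed short of the threshold, where 2.38% of all 18193 genes rose and 2.63% fell. The log2 fold changes of the 10 genes had a median of 0.34, against 0.03 for all genes. The 10 genes were chosen with earlier results of these data known. Their contrasts with all genes, here and below, therefore describe the list. Signals in the week 3 arrays lay above all 3 healthy arrays for 6 of the 10 genes and below them for none, where 17.2% of all genes lay above and 12.7% below. The same 6, Slc2a1, Pgk1, Ldha, Bnip3, Ankrd37 and Ndrg1, had an unadjusted p below 0.05 with higher signals and none had one with lower signals (11.7% and 9.77% of all genes). Throughout, a gene is said to have risen or fallen only at a Benjamini–Hochberg adjusted p below 0.05 from limma over all probe sets, and a log2 fold change (log2FC) is a difference of mean log2 signals, later time minus earlier time or minus healthy, with its standard error (SE).

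**Figure D1:**
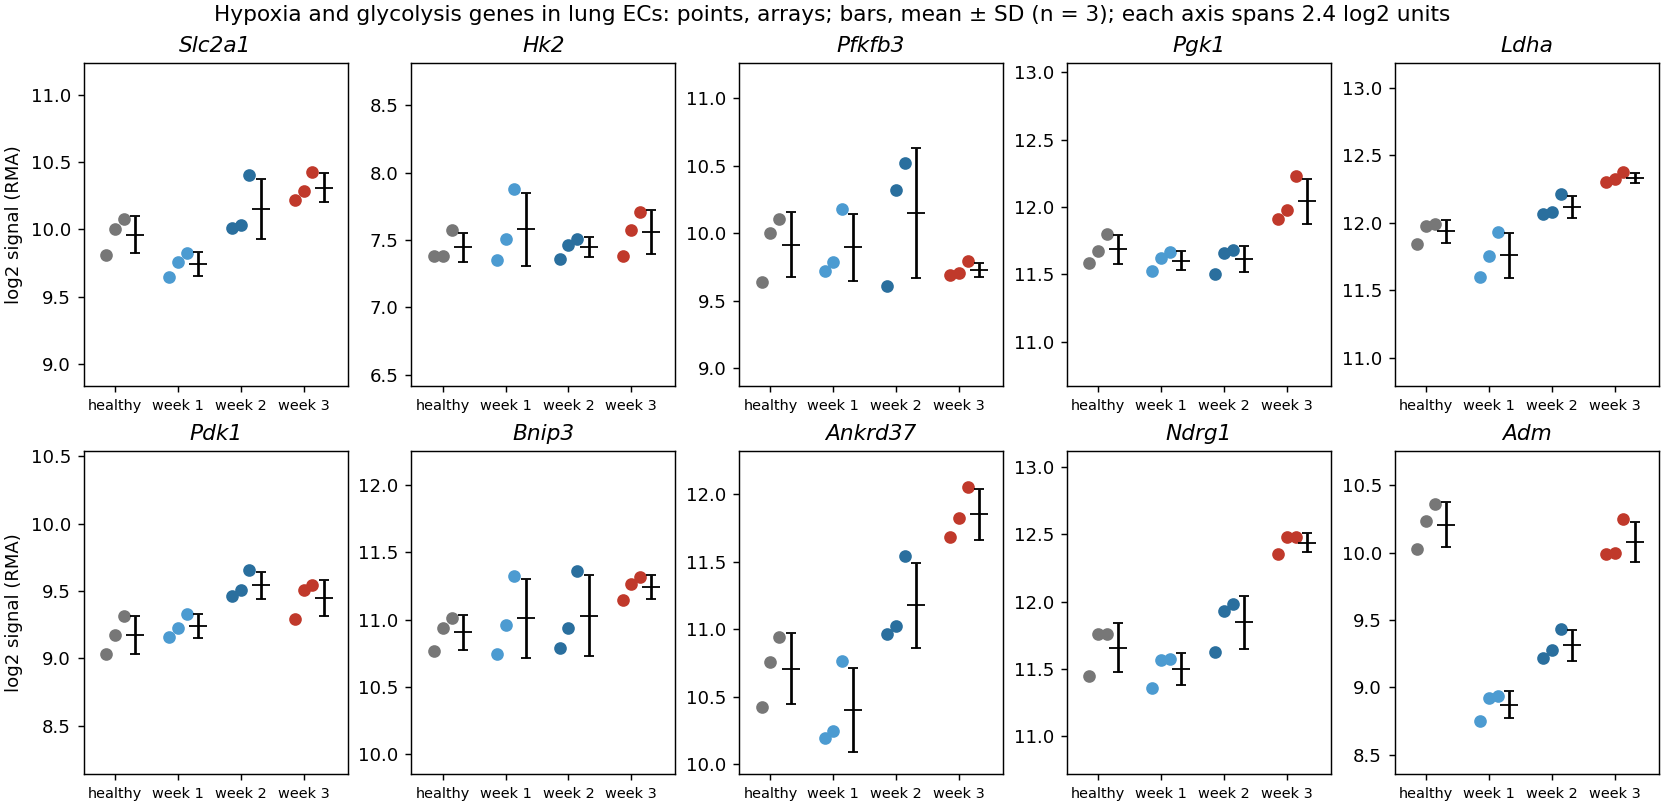
Log2 signal (vertical axes, each of the same span) of the 10 genes in healthy lung ECs and in ECs at weeks 1, 2 and 3 after injection (horizontal axes); each point is an array, sorted by value, and bars show mean ± SD (n = 3). Ankrd37 and Ndrg1 are highest at week 3, with means of 11.85 and 12.44, and Adm is lowest at week 1, with a mean of 8.87.

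Ankrd37 (chromosome 8, 45996908 to 46000414), which encodes a small ankyrin-repeat protein and is a well-known target of HIF-1, had the largest change of the 10 at week 3. Its log2 signals were 10.42, 10.76 and 10.94 in healthy ECs, 10.76, 10.25 and 10.20 at week 1, 10.97, 11.54 and 11.02 at week 2 and 12.06, 11.82 and 11.68 at week 3. All week 3 arrays were above all others, all week 2 arrays were above the healthy arrays, and week 1 overlapped with healthy. It rose 2.22-fold at week 3 against healthy (log2FC of 1.15, SE 0.17, adjusted p = 0.0153), and without healthy replicate 2 the change was 1.17 with adjusted p = 0.0579. Week 3 was also higher than week 1 by 1.45 (SE 0.19, adjusted p = 0.0256), a call that was kept only without week 1 replicate 1 (adjusted p = 0.0466 to 0.0988 over the 6 arrays left out in turn). The step between weeks 3 and 2 was 0.68 (SE 0.18, adjusted p = 0.128) and that between week 2 and healthy 0.47 (SE 0.20, adjusted p = 0.455), so neighbouring groups in the order week 1, healthy, week 2, week 3 did not differ past the threshold. A single probe set reports this gene.

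Ndrg1 (chromosome 15, 66929318 to 66969641), a stress-responsive gene that hypoxia induces in many cell types, rose at week 3 in every probe set that reports it. Its log2 signals were 11.76, 11.76 and 11.45 in healthy ECs, 11.56, 11.36 and 11.58 at week 1, 11.93, 11.99 and 11.63 at week 2 and 12.36, 12.48 and 12.48 at week 3. The week 3 arrays stood above all others, and healthy ECs overlapped with both week 1 and week 2. The rise at week 3 against healthy was 1.72-fold (log2FC of 0.78, SE 0.13, adjusted p = 0.0215), and that against week 1 had a log2FC of 0.94 (SE 0.12, adjusted p = 0.0256). Each of these calls was lost when any 1 array was left out, with adjusted p between 0.0501 and 0.0720 against healthy and between 0.0662 and 0.114 against week 1. The other probe sets had changes at least as large. The 5 probe sets of Ndrg1 gave log2FCs of 0.78 to 1.27 against healthy and all 5 passed (adjusted p = 0.00286 to 0.0215), and between weeks 3 and 2 they gave 0.59 to 0.92 with 2 of 5 passing. The probe set used for the gene was not 1 of these 2 (0.59, SE 0.13, adjusted p = 0.0721).

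The dividing-cell markers moved with both genes at week 3: 6 of 7 rose against healthy, with a median log2FC of 2.09. Markers of leukocytes averaged 8.91 to 9.13 at week 3 and 8.92 to 9.24 in healthy ECs (1 of 10 rose and 1 fell), and epithelial markers averaged 9.92 to 10.14 at week 3 and 10.81 to 11.08 in healthy ECs (4 of 9 fell). Neutrophil markers (3 genes) averaged 8.35 to 8.58 at week 3 and 7.52 to 8.41 in healthy ECs. All 3 had positive log2FCs, with a median of 0.73, 2 of them (S100a8 with 0.88 and S100a9 with 0.73) at an unadjusted p below 0.05, and none passed (adjusted p = 0.0666 for S100a8 and 0.155 for S100a9). The part of cell division and of other cells in the rises of Ankrd37 and Ndrg1 was not tested.

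Genes of glucose uptake and glycolysis had smaller changes at week 3, and none of the 5 passed the test. Ldha, the lactate dehydrogenase subunit that turns pyruvate into lactate, had log2 signals of 11.84, 11.99 and 11.98 in healthy ECs, 11.93, 11.75 and 11.60 at week 1, 12.08, 12.21 and 12.06 at week 2 and 12.33, 12.38 and 12.30 at week 3. The groups followed each other without overlap for healthy, week 2 and week 3, and week 1 overlapped with healthy. Its log2FC at week 3 against healthy was 0.40 (SE 0.10, 95% interval 0.16 to 0.64, adjusted p = 0.0798), at week 2 it was 0.18 (SE 0.10, adjusted p = 0.590), and between weeks 3 and 1 it was 0.58 (SE 0.13, adjusted p = 0.116).

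Pgk1, which makes ATP in the second phase of glycolysis, had overlapping signals in healthy ECs and at weeks 1 and 2. They were 11.80, 11.58 and 11.67 in healthy ECs, 11.53, 11.62 and 11.67 at week 1, 11.68, 11.66 and 11.51 at week 2 and 11.91, 11.98 and 12.23 at week 3. Only the week 3 arrays stood apart from the other groups. The log2FC at week 3 was 0.36 against healthy (SE 0.13, adjusted p = 0.173) and 0.43 against week 2 (SE 0.12, adjusted p = 0.139). Another of its 3 probe sets passed against healthy (adjusted p = 0.0491), and the 3 gave changes between 0.36 and 0.61. Both probe sets not used carry a suffix for shared sequence. The probe set used, which had the smallest of these changes, does not.

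Slc2a1 encodes GLUT1, the main glucose carrier of ECs. Its log2 signals were 9.81, 10.002 and 10.07 in healthy ECs, 9.64, 9.76 and 9.82 at week 1, 10.40, 10.01 and 10.03 at week 2 and 10.43, 10.22 and 10.28 at week 3. The week 3 arrays lay above the healthy arrays, while week 2 overlapped with healthy through its replicates 2 and 3 and with week 3 through its replicate 1. Against healthy the log2FC was -0.22 at week 1, 0.19 at week 2 and 0.35 at week 3 (SEs 0.13, 0.14 and 0.12, adjusted p = 0.663, 0.701 and 0.162). Between weeks 3 and 1 it was 0.57 (SE 0.12, adjusted p = 0.106). Slc2a1 has 3 probe sets, and only the probe set used had week 3 arrays clear of healthy. The others gave log2FCs of 0.19 and 0.21 at week 3 against healthy (adjusted p = 0.673 and 0.418). Their arrays also overlapped in week 3 against week 1 and in week 2 against week 1. The separations of Slc2a1 thus rest on the probe set used.

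For Hk2 and Pfkfb3, week 3 overlapped with healthy. Hk2, a hexokinase that traps glucose in the cell, had signals between 7.35 and 7.88 over all 12 arrays and a log2FC of 0.11 at week 3 against healthy (SE 0.13, 95% interval -0.19 to 0.41). Pfkfb3 makes the fructose bisphosphate that speeds up phosphofructokinase and drives glycolysis in sprouting ECs. Its signals were 9.64, 10.11 and 9.9999 in healthy ECs, 10.18, 9.72 and 9.78 at week 1, 9.61, 10.52 and 10.32 at week 2 and 9.70, 9.69 and 9.79 at week 3, so week 2 spread widest and week 3 least. Its log2FC at week 3 against healthy was -0.19 (SE 0.14, 95% interval -0.52 to 0.15), and its other probe set gave 0.18.

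Of the genes that act on mitochondria, neither passed the test in any comparison. Pdk1, a kinase that shuts off pyruvate dehydrogenase, had log2 signals of 9.03, 9.17 and 9.31 in healthy ECs, 9.16, 9.22 and 9.33 at week 1, 9.46, 9.51 and 9.65 at week 2 and 9.54, 9.29 and 9.50 at week 3. The week 2 arrays lay above both earlier groups, and week 3 replicate 2 lay among the healthy arrays. Its log2FC against healthy was 0.37 at week 2 (SE 0.12, adjusted p = 0.329) and 0.27 at week 3 (SE 0.13, adjusted p = 0.276). All 4 of its probe sets were positive at both weeks. The probe sets not used gave log2FCs of 0.11, 0.19 and 0.19 at week 2 against healthy. Their week 2 arrays overlapped with healthy and with week 1, so the separations of Pdk1 rest on the probe set used. Bnip3, a receptor that marks mitochondria for removal by autophagy, lay between 10.76 and 11.01 in healthy ECs, between 10.74 and 11.32 at week 1, between 10.79 and 11.36 at week 2 and between 11.15 and 11.32 at week 3. Only week 3 lay clear of healthy, with a log2FC of 0.34 (SE 0.12, adjusted p = 0.156), and it overlapped with weeks 1 and 2.

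**Figure D2:**
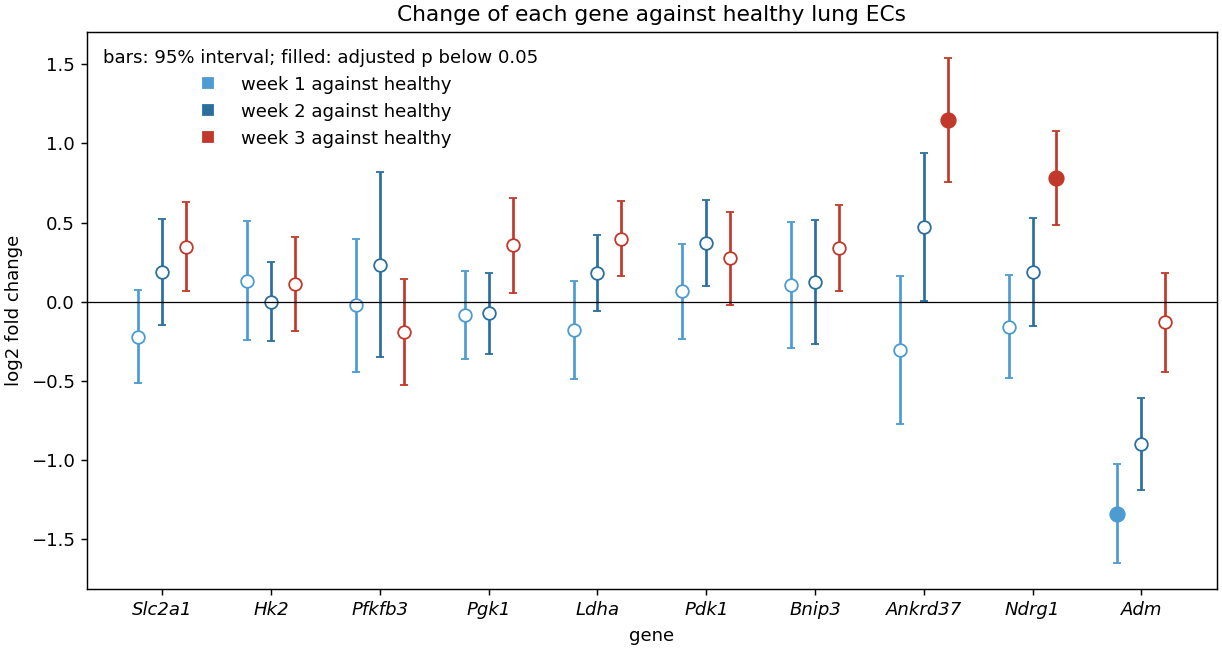
Log2 fold change (vertical axis) of each of the 10 genes (horizontal axis) at weeks 1, 2 and 3 against healthy lung ECs, with 95% intervals as bars and filled symbols for an adjusted p below 0.05. The filled symbols are Ankrd37 and Ndrg1 at week 3 (1.15 and 0.78) and Adm at week 1 (-1.34).

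Adm (chromosome 7, 110627657 to 110629820), which encodes adrenomedullin, had low signals at weeks 1 and 2 and signals near those of healthy ECs at week 3. Its log2 signals were 10.24, 10.36 and 10.03 in healthy ECs, 8.75, 8.92 and 8.94 at week 1, 9.44, 9.22 and 9.28 at week 2 and 9.997, 9.990 and 10.25 at week 3. The week 1 arrays lay lowest, the week 2 arrays lay above them and below all others, and week 3 overlapped with healthy. At week 1 Adm was the 1 gene of the 10 that fell, and none rose, where 0.0385% of all genes fell and 0.011% rose. The fall was 1.34 on the log2 scale, to 0.396 of the healthy level (SE 0.13, adjusted p = 0.0394), and the median of the 10 genes was -0.12, against 0.05 for all genes. Adm was also the 1 gene whose week 1 arrays lay below all healthy arrays, with none above (6.93% and 9.21% of all genes), and the 1 gene at an unadjusted p below 0.05, again with none higher (5.24% and 3.73% of all genes). Without any 1 of the 6 arrays the fold change stayed between -1.43 and -1.26 and the adjusted p between 0.0599 and 0.204.

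At week 2 none of the 10 genes passed the test against healthy, where 0.104% of all genes rose and 0.137% fell. At an unadjusted p below 0.05, Pdk1 and Ankrd37 were higher and Adm was lower (5.27% and 5.19% of all genes). The week 2 arrays of Ldha, Pdk1 and Ankrd37 lay above all healthy arrays and those of Adm below them (10.5% and 7.15% of all genes). Adm had a log2FC of -0.90 at week 2 (SE 0.12, adjusted p = 0.0611), and with all groups in a single fit it passed (adjusted p = 0.0101). The median of the 10 genes was 0.19, against 0.03 for all genes.

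Adm then rose between week 2 and week 3. It was the 1 gene of the 10 that passed in week 3 against week 2, where 1.35% of all genes rose and 0.748% fell, with a 1.70-fold rise (log2FC of 0.77, SE 0.12, adjusted p = 0.0327). The call was lost without any 1 array (adjusted p = 0.0683 to 0.108). Among the 10 genes, Pgk1, Ldha, Ankrd37, Ndrg1 and Adm had week 3 arrays above all week 2 arrays and none had them below (12.9% and 12.5% of all genes), and all of these but Ldha had an unadjusted p below 0.05, with none lower (8.61% and 8.34% of all genes). Between weeks 3 and 1 the rise was 2.31-fold (log2FC of 1.21, SE 0.13, adjusted p = 0.0167), and it was kept only without week 1 replicate 2 (adjusted p = 0.0496 to 0.0744 over the 6 arrays left out in turn). At week 3 the difference to healthy was -0.13 (SE 0.13, 95% interval -0.44 to 0.18, adjusted p = 0.636). In week 3 against week 1 the genes that rose were Ankrd37, Ndrg1 and Adm, and none of the 10 fell, where 0.649% of all genes rose and 0.192% fell. Together with Slc2a1, Pgk1 and Ldha, these 3 had an unadjusted p below 0.05, with none lower (7.05% and 6.47% of all genes). For the same 6 genes the week 3 arrays lay above all week 1 arrays, with none below (10.6% and 11.1% of all genes).

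The second probe set of Adm, which unlike the first has no suffix for shared sequence, gave signals of 9.26, 9.47 and 9.26 in healthy ECs, 8.17, 8.08 and 8.16 at week 1, 9.01, 8.64 and 8.62 at week 2 and 8.98, 8.90 and 9.42 at week 3. Week 1 again lay below all other arrays, and week 2 and week 3 overlapped. It also fell at week 1, with a log2FC of -1.19 (adjusted p = 0.0394). Its later differences were smaller, with 0.34 between weeks 3 and 2 (adjusted p = 0.392) and 0.96 between weeks 3 and 1 (adjusted p = 0.0570), so the rise between weeks 2 and 3 rests on the first probe set.

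Markers of cells that the sort leaves out, and of platelets, were also low at week 1. Platelet markers (6 genes) averaged 8.95 to 9.13 in healthy ECs, 7.96 to 8.43 at week 1, 8.66 to 8.80 at week 2 and 8.84 to 9.22 at week 3. Leukocyte markers (10 genes) averaged 8.92 to 9.24 in healthy ECs, 8.33 to 8.77 at week 1, 8.24 to 8.89 at week 2 and 8.91 to 9.13 at week 3. Mural markers (8 genes) averaged 9.84 to 10.06 in healthy ECs, 8.96 to 9.16 at week 1, 8.88 to 9.08 at week 2 and 9.31 to 9.38 at week 3. Epithelial markers (9 genes) averaged 10.81 to 11.08 in healthy ECs, 9.60 to 10.02 at week 1, 9.43 to 10.52 at week 2 and 9.92 to 10.14 at week 3. At week 3 the platelet and leukocyte lists overlapped with healthy, and the mural and epithelial lists lay below it. The epithelial list had a median log2FC of -1.31 at week 1 and -1.07 at week 2 against healthy, with lower signals at an unadjusted p below 0.05 for 8 and 6 of its 9 genes and 0 past the adjusted threshold. Against healthy, 1 of the 6 platelet markers fell at week 1 and their median log2FC was -0.97, and 3 of the 6 rose between weeks 1 and 3. Whether Adm came from such cells was not tested.

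**Figure D3:**
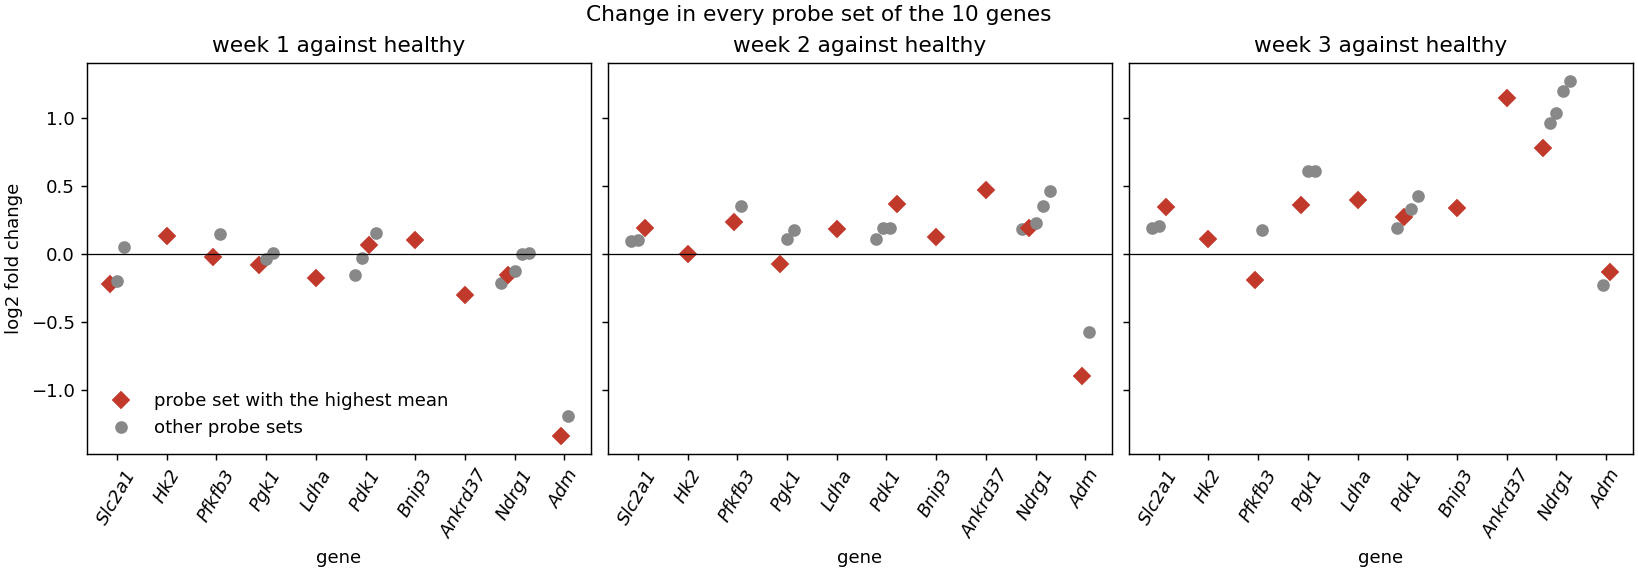
Log2 fold change (vertical axis) of every probe set of the 10 genes (horizontal axis) against healthy lung ECs, with a panel for each week; red diamonds are the probe sets used and grey circles the others. All 5 probe sets of Ndrg1 lie between 0.78 and 1.27 at week 3, both of Adm lie at -1.34 and -1.19 at week 1, and those of Pfkfb3 lie on both sides of 0 at week 3.

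The receptor of adrenomedullin is built from Calcrl and a partner, Ramp2 or Ramp3. None of the 5 measured genes of adrenomedullin receptors and related ligands passed the test in any comparison with healthy. Ramp3 and Ramp2, the pair with the largest changes at week 3, had log2FCs of 0.27 and -0.15 (SEs 0.19 and 0.11, adjusted p = 0.488 and 0.481). Over the 5 genes, log2FCs against healthy lay between -0.12 and 0.47 at week 1 and between -0.54 and 0.47 at week 2. At an unadjusted p below 0.05, 1 was higher and 0 lower at week 1 (3.73% and 5.24% of all genes). At week 2, 1 was higher and 1 lower (5.27% and 5.19%). Ramp3 signals lay between 8.71 and 8.88 in healthy ECs, 8.97 and 9.55 at week 1, and 8.84 and 9.51 at week 2.

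In week 2 against week 1, limma gave 0 genes past the threshold over the whole array (0%), with 633 genes higher and 559 lower at an unadjusted p below 0.05. Of the 10 genes, 6 (Slc2a1, Ldha, Pdk1, Ankrd37, Ndrg1 and Adm) had an unadjusted p below 0.05, each with higher signals at week 2 and none with lower ones (3.48% and 3.07% of all genes). The week 2 arrays lay above all week 1 arrays for 6 of the 10 genes and below them for none (6.16% and 6.94% of all genes). Ankrd37 had the largest of these differences, 0.78 (SE 0.21, adjusted p = 0.485), followed by Adm with 0.44 (SE 0.12, adjusted p = 0.470). The week 1 arrays are part of this comparison and of week 3 against week 1, and the healthy arrays are part of all comparisons with healthy, so these counts are not independent of each other.

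Around the 10 genes, other lists of the same pathways were read in the same way. They were written from general knowledge with earlier results of these arrays known. Of 10 HIF subunits and oxygen sensors, 1 rose at week 3 against healthy and the other 9 did not pass, and the list had a median log2FC of -0.02. The gene that rose was Hif1a, the oxygen-labile α subunit of HIF-1. Its log2 signals were 11.31, 11.17 and 11.38 in healthy ECs, 11.33, 11.45 and 11.76 at week 1, 11.52, 11.75 and 11.59 at week 2 and 12.33, 12.34 and 12.29 at week 3. The week 3 arrays lay close together and above all others, and week 1 overlapped with both neighbours. Hif1a rose by a log2FC of 1.04 at week 3 against healthy (SE 0.11, adjusted p = 0.00482) and of 0.70 against week 2 (SE 0.10, adjusted p = 0.0283). HIF-1α is known to be set mostly by protein turnover, which arrays do not measure. At the other end of this list Cited2, an inhibitor of HIF-1 picked after its value was seen, had a log2FC of -1.10 (adjusted p = 0.0510).

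Of 22 other well-known HIF targets, 1 rose at week 3 against healthy and the other 21 did not pass, with a median of 0.03 and a range of -1.24 to 0.89. The 1 was Apln, which encodes the peptide apelin of sprouting ECs, with log2 signals of 10.80, 10.89 and 11.07 in healthy ECs, 10.83, 10.94 and 11.08 at week 1, 11.19, 11.00 and 11.12 at week 2 and 11.59, 11.92 and 11.94 at week 3. Its week 3 arrays lay above all others, with a log2FC of 0.89 against healthy (SE 0.14, adjusted p = 0.0189) and 0.71 against week 2 (SE 0.13, adjusted p = 0.0478). The share of these targets that rose was 1 of 22, beside 2.38% of all genes.

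Of 16 other measured genes of glycolysis, 1 rose at week 3 against healthy and the other 15 did not pass, with a median of 0.01. Pkm, the pyruvate kinase of the last step, rose by a log2FC of 0.49 (SE 0.10, adjusted p = 0.0491). The isomerase gene Tpi1 had 0.50 against healthy (SE 0.15, adjusted p = 0.110) and rose between weeks 2 and 3 by 0.62 (SE 0.11, adjusted p = 0.0498). Slc2a3, which encodes the glucose carrier GLUT3 that is rich in platelets, neurons and leukocytes, had log2 signals of 9.31, 9.91 and 9.43 in healthy ECs, 8.05, 7.74 and 8.09 at week 1, 8.19, 8.76 and 8.28 at week 2 and 9.02, 9.33 and 8.99 at week 3. Weeks 1 and 2 lay below all healthy arrays, and week 3 lay above weeks 1 and 2. Slc2a3 rose between weeks 1 and 3 by a log2FC of 1.15 (SE 0.15, adjusted p = 0.0292), while its change at week 1 against healthy was -1.59 (SE 0.19, adjusted p = 0.0529). The enolase gene Eno2 fell at week 2 by 1.09 (SE 0.10, adjusted p = 0.0234), and at week 3 its signals of 6.41, 6.71 and 8.67 were spread on both sides of the healthy ones, which were 8.22, 8.24 and 8.26.

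**Figure D4:**
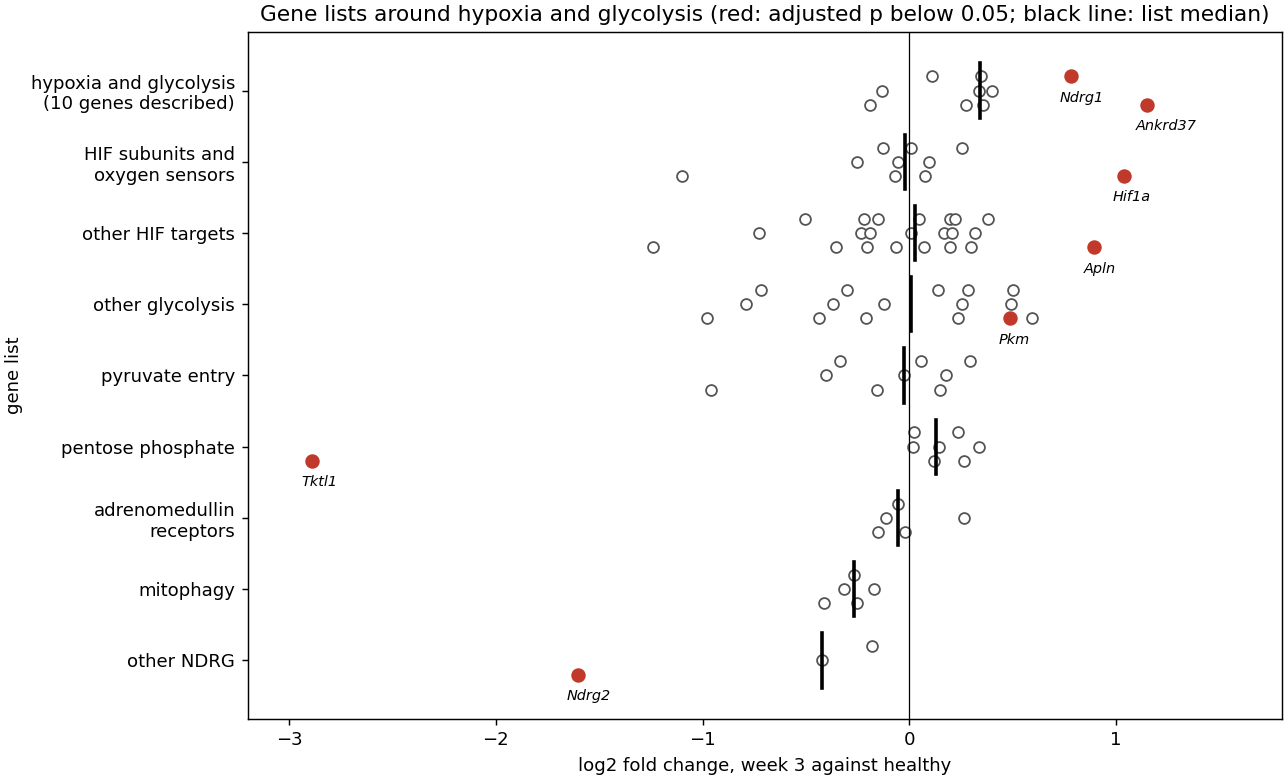
Log2 fold change at week 3 against healthy lung ECs (horizontal axis) for the 10 genes and for 8 other lists (vertical axis); circles are genes, red ones passed the test and carry their symbol, and black lines are list medians. The median of the 10 genes is 0.34, those of HIF subunits and oxygen sensors, other HIF targets and other glycolysis genes are -0.02, 0.03 and 0.01, and Tktl1 lies farthest from 0 with -2.89.

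In the pentose phosphate pathway, the branch of glucose use that makes ribose and NADPH, 1 of 8 measured genes fell at week 3 against healthy and 7 did not pass the test. Tktl1, a transketolase-like gene, had log2 signals of 9.16, 8.86 and 9.32 in healthy ECs, 6.99, 7.57 and 7.17 at week 1, 9.04, 9.12 and 8.87 at week 2 and 6.48, 5.98 and 6.21 at week 3. It was thus low at weeks 1 and 3 and overlapped with healthy at week 2. Against healthy, Tktl1 fell by 1.87 at week 1 (SE 0.19, adjusted p = 0.0394) and fell by 2.89 at week 3 (SE 0.17, adjusted p = 0.000877).

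Genes related to Ndrg1, Bnip3 and Pdk1 were read as well. Of 3 other NDRG genes, Ndrg2 fell by 1.60 at week 3 against healthy (SE 0.16, adjusted p = 0.00476), with signals of 7.76, 7.60 and 7.64 at week 3 and of 9.41, 9.47 and 8.93 in healthy ECs. Ndrg3 fell between weeks 2 and 3 by 0.62 (SE 0.11, adjusted p = 0.0454). Of 5 measured mitophagy genes none passed the test at week 3, all 5 had negative log2FCs, between -0.41 and -0.17, and 3 had an unadjusted p below 0.05 (9.77% of all genes with lower signals). Pink1, the kinase that flags damaged mitochondria, had -0.41 (SE 0.11, adjusted p = 0.0870), and Gabarapl1, which joins the autophagosome membrane, had -0.32 (adjusted p = 0.154). None of 9 genes of pyruvate entry into mitochondria passed the test, and the 2 with the largest changes were Pdk4, another pyruvate dehydrogenase kinase (-0.96, SE 0.26, adjusted p = 0.0968), and Pdp1, a phosphatase that opposes these kinases (-0.40, adjusted p = 0.202).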

How the data were processed

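RNA of sorted lung ECs was hybridized to Affymetrix GeneChip mouse genome arrays. The deposited log2 signals, 1 per probe set and array, were normalized by the authors by robust multiarray average in Chipster and were used as deposited. The values lay between 5.27 and 14.1. Of 45101 probe sets, 64 array controls were set aside, and 45037 were tested, of which 34945 carry 1 gene symbol in GEO's platform annotation, 932 several and 9160 none. Probe sets with several symbols or none named no gene. Each pair of groups was fitted on its own in R 4.3.3 with limma 3.58.1 (lmFit, eBayes, default settings), the kind of test the methods name, with Benjamini–Hochberg correction over all tested probe sets and a threshold of 0.05. Tables and figures were made in Python 3.11.15 with numpy 2.4.6, pandas 2.3.3 and matplotlib 3.10.9. The test was also run on simulated data as a check of the code. That run set no limit on false calls and does not measure how reliable the calls given here are.

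The members and lists were chosen with earlier results of these data known. The text names all 10 members, the list genes that pass in a comparison (at most 4 per list), and otherwise at most 2 with the largest change at week 3. Cited2 and the neutrophil markers S100a8 and S100a9 lie outside this rule and were named after their values were seen, and Calcrl is named as background only. Gapdh, Eno1, Gpi1, Pfkfb1, Mpc2, Bnip3l, Ero1l, Loxl2, Calca and G6pdx had no probe set with a single symbol and were not tested here. Gapdh was read only through its control probe sets. Correlations between arrays were 0.973 to 0.983 within groups and 0.961 to 0.981 between groups. Array signals carry no counts, and their number limits precision.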

Additional observations from a re-analysis of the deposited data

Results flagged for a closer look

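For 3 of the 10 genes the change against healthy ECs differed between weeks, by the direct limma test of week against week. Ankrd37 and Ndrg1 differed between weeks 3 and 1, by 1.45 and 0.94 on the log2 scale (adjusted p = 0.0256 for both). Adm differed between weeks 3 and 1 by 1.21 (adjusted p = 0.0167) and between weeks 3 and 2 by 0.77 (adjusted p = 0.0327). Of all genes, 0.649% rose and 0.192% fell between weeks 1 and 3, and 1.35% rose and 0.748% fell between weeks 2 and 3. With 1 array left out, 0 to 1 of the 10 genes passed between weeks 3 and 1 and 0 between weeks 3 and 2. The second probe set of Adm passed in neither comparison (adjusted p = 0.0570 and 0.392).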

How the results depend on the processing

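With 3 arrays per group, the number of the 10 genes that passed moved with the settings, and so did the share of all genes. Against healthy at week 3 it was 2 (5.01% of all genes passed), and it was 4 by the mean of a gene's probe sets (Pgk1, Ldha, Ankrd37 and Ndrg1, 7.84% of all genes) and 0 to 1 with 1 array left out (1.81% to 2.76%). Against healthy at week 2 it was 0 (0.242%), and it was 1, Adm, with all groups in 1 fit, with a trended and robust variance, among probe sets above the median in at least 3 arrays and by the mean of probe sets (adjusted p = 0.0101, 0.0354, 0.0341 and 0.0466, with 0.583%, 0.632%, 0.791% and 0.737% of all genes). At week 1 it was 1 (0.0495%), and 0 with any array left out (0% to 0.033%). Between weeks 3 and 2 it was 1 (2.1%). It was 2, Ndrg1 and Adm, with all groups in 1 fit (3.33%) and among the probe sets above the median (5.06%), 3 with a trended and robust variance (Pgk1, Ndrg1 and Adm, 4.27%) and 0 with any array left out (0% to 0.753%), while without suffixed probe sets (2.01%) and by the mean (3.92%) it was 1, Ndrg1 in place of Adm. Between weeks 3 and 1 it was 3 (0.841%), then 5 with all groups in 1 fit (Slc2a1 and Ldha in addition, 2.91%) and 0 to 1 with 1 array left out (0% to 0.286%). Between weeks 2 and 1 it was 0 in all settings. Hk2 did not pass the filter at the median, and the other 9 genes did. No gene that passed in the main setting changed sign under any setting.

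The replicate numbers do not pair the arrays: deviations of same-numbered arrays correlated by -0.10 to 0.06, and 6 of 18 correlated best with their own number. With the replicate number as a block, 0 of the 10 genes passed in each comparison (Ankrd37 and Ndrg1 at week 3 against healthy, adjusted p = 0.0648 and 0.0723, where 2.08% of all genes passed).

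Signs turned only for small differences, at most 0.13 in size in the main setting. With arrays centred on their medians, Hk2 at week 2 against healthy was -4.62e-05. By the mean of probe sets, Pgk1 at week 2 was 0.0718, Pfkfb3 at week 1 was 0.0640 and Pdk1 between weeks 3 and 2 was 0.0865. With 1 array left out, Bnip3 ranged over -0.0532 to 0.24 at week 1, -0.0421 to 0.24 at week 2 and -0.15 to 0.18 between weeks 2 and 1; Hk2 over -0.0163 to 0.25 at week 1, -0.0319 to 0.0633 at week 2, -0.25 to 0.0166 between weeks 2 and 1 and -0.14 to 0.13 between weeks 3 and 1; Pfkfb3 over -0.16 to 0.0743 at week 1, Pdk1 over -0.00612 to 0.14 at week 1 and Pgk1 over -0.0285 to 0.0641 between weeks 2 and 1. The cause of these changes was not tested.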
